A study of Mus musculus with 12 samples.

Results

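MiR-184, miR-203 and miR-205 are miRNAs of surface and lens epithelium, and they were followed here by name in the retina and sclera of mice with form-deprivation myopia. Of the 696 mouse miRNA names on the array, 4 belong to these miRNAs, namely mmu-miR-184-3p, mmu-miR-203-3p, mmu-miR-203-5p and mmu-miR-205-5p, and the prefix for the mouse is left out below. The 12 arrays came from C57BL/6J mice at postnatal day 34 and comprised 3 arrays each of control retina, myopic retina, control sclera and myopic sclera. The right eyes had been covered with a frosted diffuser from postnatal day 24 for 10 days (myopic), while the uncovered left eyes of the same animals served as controls, so that the control eyes shared the anesthesia with ketamine and xylazine, the housing and the age of the myopic eyes. According to the methods, every array was hybridized with RNA from the retinas or scleras of 3 pooled eyes, although the labels of the samples name a single mouse, and surrounding tissue and the lens were removed before the retina and sclera were dissected. The mice carried no engineered allele.

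MiRNAs are short RNAs that guide silencing complexes to mRNAs, mainly through a seed near the 5′ end of the miRNA that pairs with the target. MiR-184 is abundant in the corneal epithelium and the lens, miR-203 promotes the differentiation of stratified epithelium such as the epidermis, and miR-205 is a miRNA of the basal cells of skin and cornea that, together with the miR-200 family, represses the mesenchymal factors Zeb1 and Zeb2. The 3 miRNAs are described here as candidate markers of epithelium that was dissected together with the retina or sclera.

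The mature sequences of the 4 miRNAs (RefSeq, GRCm38.p6) are given 5′ to 3′ with the seed, bases 2 to 8, in capitals, since the seed defines the targets and separates the miRNAs from each other:
miR-184-3p: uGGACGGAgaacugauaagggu
miR-203-3p: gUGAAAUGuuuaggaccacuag
miR-203-5p: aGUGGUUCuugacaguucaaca
miR-205-5p: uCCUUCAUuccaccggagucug

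The 4 seeds differ from each other, and 0 other miRNAs among the 1679 mouse mature names in RefSeq share any of them. MiR-184-3p lies at chr9:89802263-89802284 on the minus strand, within the hairpin Mir184. MiR-203-5p (chr12:112130889-112130910) and miR-203-3p (chr12:112130927-112130948) are the opposite arms of the hairpin Mir203 on the plus strand. MiR-205-5p lies at chr1:193507503-193507524 on the minus strand, within Mir205. The 3 hairpins are therefore on different chromosomes.

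On these arrays a miRNA is measured by several short probes, each printed as repeated spots. The total gene signal is the sum over its detected probes, that is, those whose signal exceeded 3 times its error. The probes of miR-203-3p and miR-205-5p are shown 5′ to 3′ because they decide what was summed, with the base that the longer probe has beyond the shorter one in capitals:
miR-203-3p, 18 bases: ctagtggtcctaaacatT
miR-203-3p, 17 bases: ctagtggtcctaaacat
miR-205-5p, 16 bases: cagactccggtggaaT
miR-205-5p, 15 bases: cagactccggtggaa

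The probes of miR-203-3p paired with bases 5 to 22 and 6 to 22 of the miRNA, and those of miR-205-5p with bases 7 to 22 and 8 to 22, so that neither pair covered the whole seed. The probes of miR-184-3p, of 22 and 21 bases, paired with bases 1 to 22 and 2 to 22. The log2 ratio of the shorter to the longer probe of miR-203-3p was -1.37 to -1.27 on the 4 sclera arrays on which both were detected. Only this longer probe was detected on all 6 retina arrays, on control sclera array 3 and on myopic sclera array 1, whereas both probes were summed on the remaining sclera arrays. In contrast, the log2 ratio of the probes of miR-184-3p stayed between -0.04 and 0.05 on all 12 arrays. The length of the probes differed between the miRNAs, and levels were therefore not compared between different miRNAs.

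As for the arrays as a whole, 353 to 401 miRNAs were detected on the retina arrays and 274 to 317 on the sclera arrays, and no spot of a mouse miRNA was saturated. The tissue labels matched their markers. The summed signal of 6 neuronal miRNAs, led by miR-124-3p, was 205617 to 308135 in the retina and 843 to 13706 in the sclera, and that of 6 mesenchymal miRNAs, led by miR-199a-3p, was 129 to 542 in the retina and 7835 to 23763 in the sclera. Neuronal miRNAs were thus present in every sclera array, and least on control sclera array 3, which also had the lowest total signal of the 12 arrays. Each of the 3 slides carried 1 array of every group, always in the same place for a given group, and place and group cannot be told apart.

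The values below are total gene signals as scanned or, where called normalized, log2 values after quantile normalization of the 12 arrays with a floor of 0.5, at which an undetected miRNA stands at -1. Groups were compared with limma over the 443 miRNAs detected on at least 1 array, and a difference was called where it reached 2-fold with a p-value, adjusted by the Benjamini-Hochberg procedure, under 0.05. Of the 4 names, 3 were tested. MiR-203-5p was not detected on any of the 12 arrays, and it was left out of the comparisons.

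MiR-205-5p, the miRNA of basal epithelial cells, was detected on all 6 sclera arrays and on 1 of the 6 retina arrays. The total gene signal of mmu-miR-205-5p was 971 (control sclera array 1), 417 (array 2) and 108 (array 3), and in the myopic sclera it was 86.0, 474 and 421. It was listed at 0.1, that is, not detected, on control retina arrays 1 and 2 and on all 3 myopic retina arrays, and it had a signal of 12.2 on control retina array 3, where only the 16-base probe was detected. Every sclera array was above every retina array, and the lowest sclera signal was 86.0 against a highest retina signal of 12.2. The normalized level was 9.16 ± 0.84 (log2, SD, n = 3) in the control sclera and 8.95 ± 1.22 (log2, SD, n = 3) in the myopic sclera.

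The difference of miR-205-5p between control sclera and control retina was 8.53 on the log2 scale (standard error 1.22, adjusted p = 1.8e-04, higher in 3 of 3 pairs). Because 2 of the 3 control retina arrays stood at the floor, the size of this difference depends on the floor, and it was 6.69 when each array was floored at its lowest detected signal and 10.08 with a floor of 0.1. After normexp, a background correction that lifts dim signals by 50, it was 1.64 and still called. Between myopic sclera and myopic retina the difference was 9.95 (standard error 1.22, adjusted p = 5.7e-05, higher in 3 of 3 pairs), and here the miRNA was at least 42.5-fold higher in the sclera. This bound was taken on signals scaled to the 75th percentile of each array, with both undetected probes of miR-205-5p placed at 3 times their error on every myopic retina array.

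MiR-203-3p, the miRNA of differentiating stratified epithelium, was detected on all 12 arrays, but it was dim in the retina. The total gene signal of mmu-miR-203-3p in the control retina was 11.8 (array 1), 13.5 (array 2) and 13.8 (array 3), and in the myopic retina it was 10.0, 16.7 and 11.1. The lowest signal of any detected miRNA was 3.01 to 4.70 on the 6 retina arrays. In the sclera miR-203-3p had 118, 59.2 and 10.4 on the control arrays and 14.0, 55.7 and 49.0 on the myopic arrays. As scanned, the tissues therefore overlapped, with control sclera array 3 below all control retina arrays and myopic sclera array 1 below myopic retina array 2. Control sclera array 3 was also the array with the fewest detected miRNAs.

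After normalization, miR-203-3p was at 3.53 ± 0.78 in the control retina, 2.29 ± 0.50 in the myopic retina, 6.64 ± 0.95 in the control sclera and 6.39 ± 1.19 in the myopic sclera (log2, SD, n = 3 each), and retina and sclera no longer overlapped. The difference was 3.10 between the control tissues (standard error 0.69, adjusted p = 0.0031, 95% interval 1.56 to 4.65) and 4.10 between the myopic tissues (standard error 0.69, adjusted p = 4.9e-04, 95% interval 2.56 to 5.65), and the sclera was higher in 3 of 3 pairs in both comparisons. With no normalization between arrays the differences fell to 1.68 (adjusted p = 0.098) and 1.45 (adjusted p = 0.13), and neither was called. With normexp background correction they were 0.42 in both comparisons, below 2-fold. Among the 246 miRNAs detected on all 12 arrays, whose median difference was 0.24 in the control and 0.32 in the myopic tissues, miR-203-3p had the rank 18 and 17 from the top. With the 18-base probe alone, an alternative chosen after seeing the data, the differences were 2.84 (adjusted p = 0.0023) and 3.82 (adjusted p = 3.1e-04).

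MiR-184-3p, the miRNA of cornea and lens, was detected on all 12 arrays in both tissues. The total gene signal of mmu-miR-184-3p in the control retina was 94.0 (array 1), 1479 (array 2) and 5342 (array 3), and in the myopic retina it was 656, 720 and 546. On the sclera arrays it was 5435, 1666 and 552 (control) and 614, 2494 and 2431 (myopic). The control retina thus spanned nearly the whole range of the sclera, while the 3 myopic retina arrays lay close together. The normalized level was 9.31 ± 3.07 in the control retina, 8.72 ± 0.12 in the myopic retina, 11.53 ± 1.08 in the control sclera and 11.47 ± 1.48 in the myopic sclera (log2, SD, n = 3 each).

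For miR-184-3p no difference between tissues was called. Control sclera and control retina differed by 2.23 (standard error 1.37, adjusted p = 0.185, 95% interval -0.85 to 5.30), with the sclera higher in 2 of 3 pairs. The pairs 1, 2 and 3 differed by 6.90, 0.62 and -0.85, so that the array with the lowest retinal level belonged to the number with the highest scleral level. The value was 0.50 without control retina array 1 (adjusted p = 0.67) and 3.44 without control retina array 3 (adjusted p = 0.046), at which it was called. Between myopic sclera and myopic retina the difference was 2.75 (standard error 1.37, adjusted p = 0.0999), the sclera was higher in 3 of 3 pairs and the groups did not overlap. When these 6 arrays were fitted on their own the adjusted p-value was 0.021, and it was 0.013 when control retina array 1 was left out, with a standard error of 0.80. The difference was called in both of these fits.

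In all, miR-203-3p and miR-205-5p were called higher in the control sclera than in the control retina, 2 of the 3 tested, in a comparison in which 23% of the 443 miRNAs were called higher. The same 2 of 3 were called between the myopic tissues, where 26.4% of all miRNAs were called higher. In the control tissues 2 of 3 did not overlap, against 26% of the 443 miRNAs that were higher without overlap, and in the myopic tissues 3 of 3 did not overlap, against 35%. The order of the groups was the same for all 3 miRNAs, from control sclera over myopic sclera and control retina to myopic retina, but the neighbors control sclera and myopic sclera, and control retina and myopic retina, did not differ beyond their spread, and myopic sclera was not tested against control retina. In these bulk samples, fewer cells of a type and less miRNA per cell cannot be told apart.

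**Figure D1:**
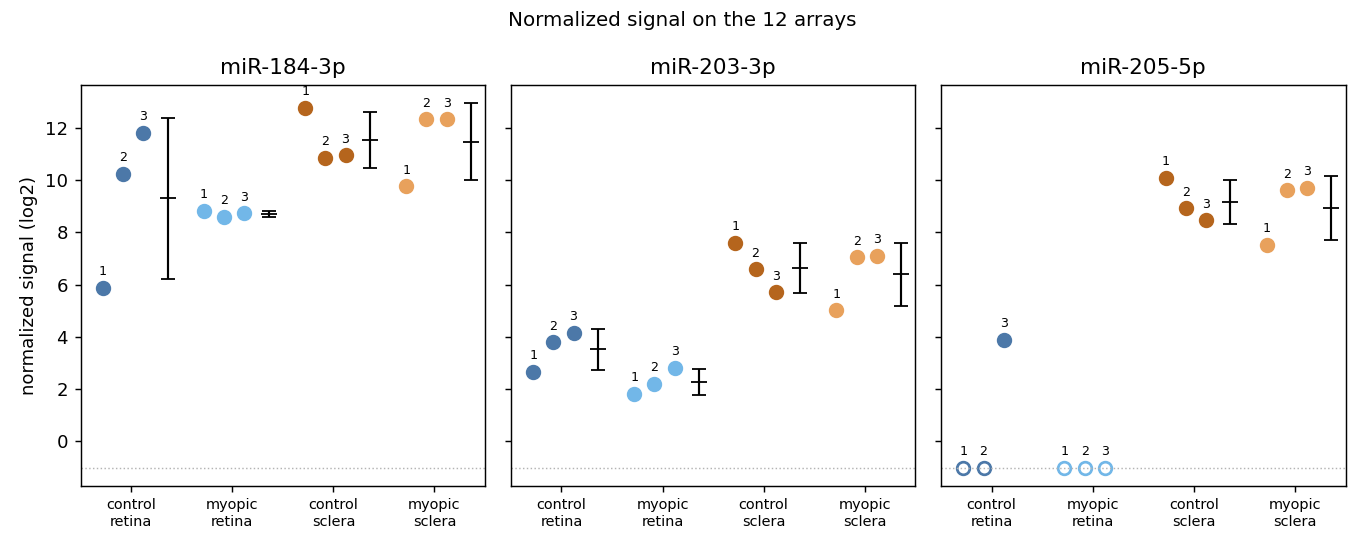
Normalized signal (log2, vertical axis) of miR-184-3p, miR-203-3p and miR-205-5p on each of the 12 arrays, with the array number above each point. Filled points are detected, open points not detected and at the floor of -1 (dotted line), and the bars give mean ± SD of groups in which all 3 arrays were detected. MiR-184-3p spans 5.87 to 11.80 in the control retina and 8.60 to 8.83 in the myopic retina, and miR-205-5p is above 7 on every sclera array and detected on 1 retina array.

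The main question of the study was whether form deprivation changes miRNA levels, and none of the 3 miRNAs was called in the retina. MiR-184-3p differed between myopic and control retina by -0.59 (standard error 1.37, adjusted p = 0.89, 95% interval -3.67 to 2.49), and its pairs went in opposite directions, 2.95, -1.65 and -3.07 for pairs 1, 2 and 3. Its sign depended on single arrays, since the value was -2.33 without control retina array 1 (adjusted p = 0.078) and 0.64 without control retina array 3 (adjusted p = 0.96). The interval reaches beyond 2-fold on both sides, and a change of that size was not detectable with these arrays.

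MiR-203-3p differed by -1.25 in the retina (standard error 0.69, adjusted p = 0.27, 95% interval -2.79 to 0.30) and was lower in 3 of 3 pairs, by -0.83, -1.58 and -1.33, although the groups overlapped. As scanned, its signals hardly differed, with 11.8 to 13.8 in the control and 10.0 to 16.7 in the myopic retina, and the difference was -0.19 when the arrays were scaled to their 75th percentile (adjusted p = 1) and -0.08 with no normalization (adjusted p = 1). It was called only when the arrays were weighted by their spread, at -1.76 (adjusted p = 0.0070), a setting under which 146 of the 443 miRNAs were called in this comparison. The median of the 246 miRNAs detected everywhere stood at -0.21 after quantile normalization and at -0.02 after 75th percentile scaling.

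For miR-205-5p the difference in the retina of -1.63 (standard error 1.22, adjusted p = 0.41) came from control retina array 3 alone, and without this array it was listed at the floor on all remaining retina arrays. In this comparison limma called 0.226% of the 443 miRNAs, while 130 of them (29.3%) had an unadjusted p-value under 0.05. The number of calls over all miRNAs rose from 1 to 122 without control retina array 1 and to 13 without myopic retina array 3, and none of the 3 miRNAs was called without either of these arrays. The unadjusted p-values of miR-184-3p, miR-203-3p and miR-205-5p were 0.68, 0.10 and 0.21. Without moderation of the spread, 0 of the 3 were called either.

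In the sclera, the differences between myopic and control arrays were small and close to each other for the 3 miRNAs, and limma called 0 of the 3 as well as 0% of all 443 miRNAs (13, or 2.93%, with an unadjusted p-value under 0.05, none of these 3). They were -0.06 for miR-184-3p (standard error 1.37, 95% interval -3.14 to 3.02), -0.25 for miR-203-3p (standard error 0.69, 95% interval -1.79 to 1.30) and -0.21 for miR-205-5p (standard error 1.22, 95% interval -2.95 to 2.53), each with an adjusted p of 1. Pair 1 was lower in the myopic sclera for each miRNA, by -3.01, -2.59 and -2.55, and pairs 2 and 3 were higher, by 1.46 and 1.37 for miR-184-3p, 0.46 and 1.39 for miR-203-3p, and 0.68 and 1.24 for miR-205-5p. Without control sclera array 1 the differences became 0.56, 0.24 and 0.26, and without myopic sclera array 1 they became 0.80, 0.44 and 0.50, so that the sign of all 3 rested on these arrays.

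The changes in retina and sclera did not differ beyond their spread. The change in the retina minus the change in the sclera was -0.53 for miR-184-3p (adjusted p = 0.855), -1.0 for miR-203-3p (adjusted p = 0.53) and -1.42 for miR-205-5p (adjusted p = 0.59), in a comparison in which 0.226% of all miRNAs were called.

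**Figure D2:**
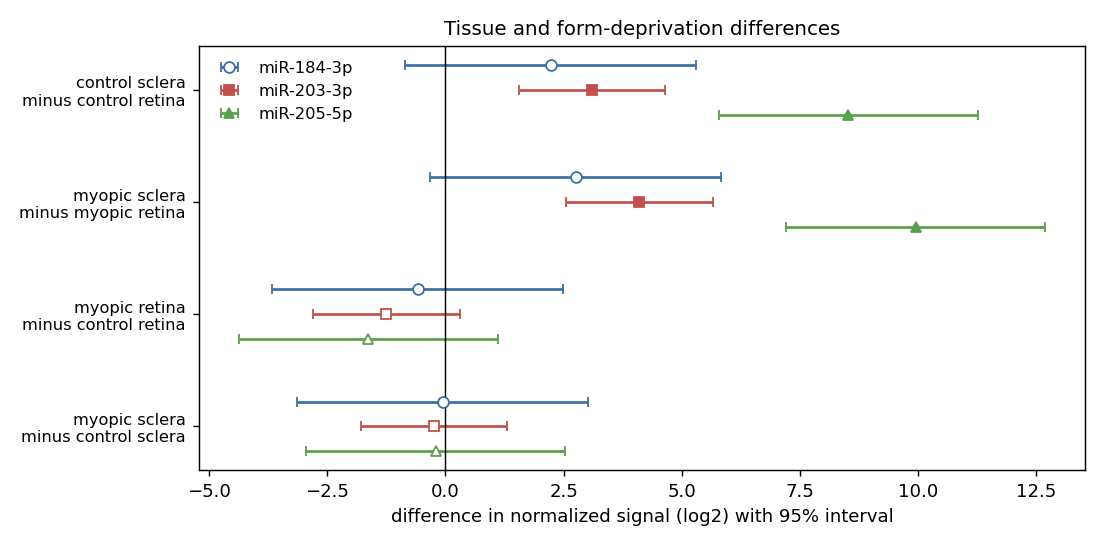
Differences in normalized signal (log2, horizontal axis) with 95% intervals for miR-184-3p (circles), miR-203-3p (squares) and miR-205-5p (triangles) in the tissue comparisons and the form-deprivation comparisons. Filled symbols were called and open symbols were not. The intervals of miR-203-3p and miR-205-5p lie above 0 in both tissue comparisons, and all 6 intervals of the form-deprivation comparisons include 0. The size of the miR-205-5p values depends on the floor.

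The arrays of a sclera group differed more in these miRNAs than in most others. In the myopic sclera, miR-184-3p, miR-205-5p and miR-203-3p had SDs of 1.48, 1.22 and 1.19, the ranks 2, 4 and 5 among the 287 miRNAs detected on all 3 arrays, whose median SD was 0.12. In the control sclera the SDs were 1.08 for miR-184-3p, 0.95 for miR-203-3p and 0.84 for miR-205-5p, the ranks 10, 14 and 20 of 271, with a median of 0.32. The largest spread was that of miR-184-3p in the control retina, where its SD of 3.07 ranked first among 330 miRNAs with a median of 0.30 (it ranked 3 when the arrays were scaled to the 75th percentile). In the myopic retina, by contrast, its SD of 0.12 had the rank 250 of 372, with a median of 0.19. The spread of miR-203-3p in the retina depended on the scaling. Its SD in the control retina was 0.78 (rank 64 of 330), and 0.085 with 75th percentile scaling (rank 235, median 0.15), while in the myopic retina it was 0.50 (rank 52 of 372) and 0.20 (rank 105, median 0.10).

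**Figure D3:**
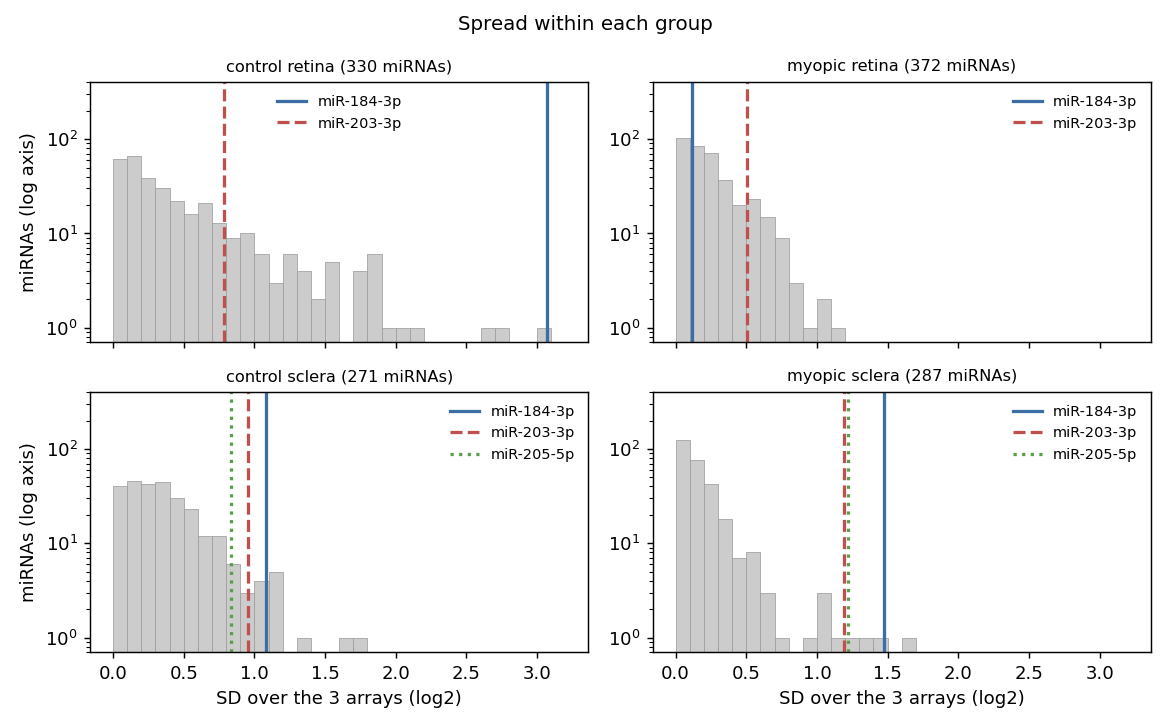
Number of miRNAs (log axis) by the SD of their normalized signal over the 3 arrays of a group (log2, horizontal axis), for miRNAs detected on all 3 arrays, with lines at the SDs of the epithelial miRNAs. MiR-184-3p lies at 3.07 in the control retina, to the right of all others, and at 0.12 in the myopic retina. All 3 miRNAs lie in the right tail in the sclera.

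Among the 6 sclera arrays the 3 miRNAs varied together. Each normalized level was highest on control sclera array 1 and lowest on myopic sclera array 1, with myopic sclera arrays 2 and 3 next to the top. Pearson's r of the normalized levels over the 6 arrays was 0.94 between miR-184-3p and miR-203-3p, 0.98 between miR-184-3p and miR-205-5p, and 0.99 between miR-203-3p and miR-205-5p. With 75th percentile scaling these values were 0.96, 0.97 and 0.98. The points share the array, the RNA extract and the normalization, and they are given as a description.

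The miRNAs closest to them over the sclera arrays, out of 263 detected on all 6, were each other and members of the miR-200 family, miRNAs of epithelial cells in general. For miR-203-3p the nearest was miR-200b-3p (r = 0.99), followed by miR-205-5p, miR-429-3p (r = 0.98), miR-200c-3p (r = 0.98) and miR-200a-3p (r = 0.95). For miR-205-5p the order was miR-203-3p, miR-200b-3p (r = 0.99), miR-200c-3p (r = 0.98), miR-184-3p and miR-429-3p (r = 0.96), and for miR-184-3p it was miR-205-5p, miR-203-3p, miR-200b-3p (r = 0.94), miR-200c-3p (r = 0.94) and miR-429-3p (r = 0.89). All 5 nearest miRNAs of each thus came from the epithelial miRNAs. Not every epithelial miRNA followed them. MiR-31-5p stayed between 7.52 and 7.78 on the 6 sclera arrays, and its r was 0.71 with miR-184-3p, 0.74 with miR-203-3p and 0.72 with miR-205-5p. The 5p arms of the miR-200 family that were on the array were detected on no sclera array.

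The miR-200 family was likewise highest on control sclera array 1. MiR-200b-3p had total gene signals of 378, 228 and 41.3 on control sclera arrays 1 to 3 against 48.4, 202.6 and 200.02 on their myopic counterparts, and in the retina it was detected on control retina array 3 alone, at 7.78. MiR-200a-3p and miR-200c-3p were detected on all 6 sclera arrays, at 13.1 to 215 and 11.3 to 154, and on none of the retina arrays. MiR-141-3p was detected on 5 sclera arrays, at 17.2 to 172, with control sclera array 3 the exception, and on no retina array. MiR-429-3p had 23.0 to 241 in the sclera and was also detected on control retina array 1 (18.1) and on all 3 myopic retina arrays (8.71 to 57.1). The 5 miR-200 family members on the 3p arm were all called higher in the sclera in both tissue comparisons. Of all 443 miRNAs, 23% were called higher between the control tissues and 26.4% between the myopic tissues. MiR-200a-3p, miR-200c-3p and miR-141-3p were tested only because of their sclera arrays, and all their retina values stood at the floor. MiR-200b-3p stood at the floor on all 3 myopic retina arrays. These calls therefore restate where the miRNAs were detected, and their sizes depend on the floor.

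A list of 12 other epithelial miRNAs (both arms of the miR-200 family and of miR-31) was also followed, of which 11 were on the array and 9 were tested. In control sclera against control retina 5 of the 9 were called higher and 0 lower, where 23% of all miRNAs were called higher and 27.5% lower. The 5 were the 3p arms of the miR-200 family above, with the same limit. The median difference of the 9 was 5.71 against -0.30 over all miRNAs tested. This median was the value of miR-141-3p, which stood at the floor on all retina arrays and on control sclera array 3, so its size depends on the floor. In the myopic tissues 5 were called higher and 2 lower, with a median of 3.97 against -0.36, the lower ones being miR-141-5p and miR-200a-5p. These 2 stood at the floor on all sclera arrays. In that comparison 26.4% of all miRNAs were called higher and 32.5% lower. None of the 9 was called in the comparisons of myopic with control retina or sclera, where their median difference was 0 in both. Both medians are values of miRNAs not detected in the tissue, and they do not measure a lack of change. In the sclera miR-141-5p and miR-200a-5p, detected on no sclera array, stood at 0. In the retina 3 were higher and 3 lower, and miR-141-3p, miR-200a-3p and miR-200c-3p, detected on no retina array, stood at 0. The higher ones were miR-200a-5p (4.38), miR-141-5p (3.89) and miR-429-3p (3.22), each with an adjusted p of 0.134 by limma. Each was detected on 1 control and 3 myopic retina arrays, and the other control arrays stood at the floor, which sets the size. On control retina array 1 their signals were 41.4, 13.6 and 18.1, and their lowest myopic retina signals were 40.4, 16.2 and 8.71. The paper lists these 3 as up in the myopic retina. The summed signal of the list was 142 to 1326 in the control sclera, 241 to 728 in the myopic sclera, 113 to 579 in the control retina and 155 to 377 in the myopic retina.

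Markers of other cell types had r values nearer to 0 across the sclera arrays. The normalized level of miR-199a-3p, a miRNA of mesenchymal cells and fibroblasts, stayed between 13.59 and 13.69 on the 6 sclera arrays, while miR-205-5p ranged from 7.54 to 10.08. Quantile normalization gives a miRNA near the top rank much the same value on every array, and as scanned miR-199a-3p ranged from 3479 to 10824 and miR-205-5p from 86.0 to 971. The r with miR-205-5p was -0.39 for miR-199a-3p, -0.42 for the muscle miRNA miR-1a-3p, 0.18 for the neuronal miRNA miR-124-3p, -0.08 for miR-204-5p of pigment cells, -0.00 for the endothelial miRNA miR-126-3p and -0.07 for miR-451 of red blood cells. Myopic sclera array 1, the lowest for the 3 miRNAs, had the highest normalized level of miR-1a-3p of the 6 arrays, at 11.17, and the summed signal of the 4 muscle miRNAs on the array was 1314 to 4800 in the control and 1725 to 4522 in the myopic sclera. Whether epithelium was carried along with the sclera in unequal amounts was not tested.

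**Figure D4:**
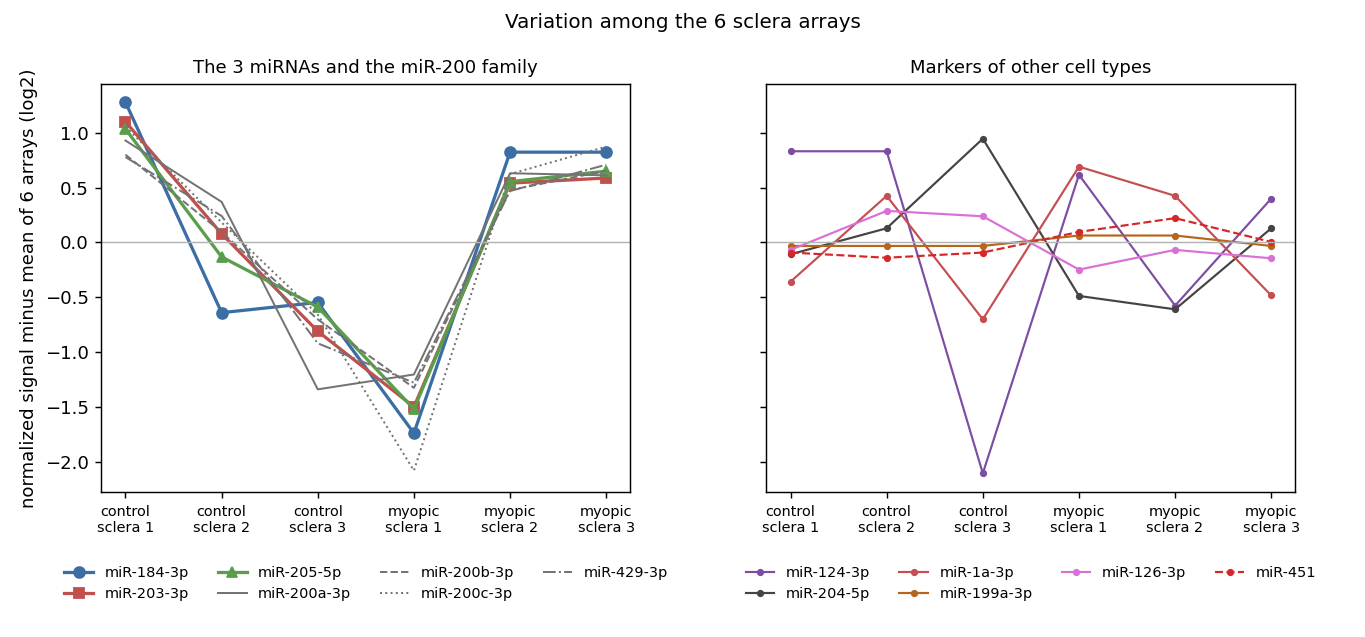
Normalized signal minus its mean over the 6 sclera arrays (log2, vertical axis) for the epithelial miRNAs with 4 members of the miR-200 family (left) and for markers of other cell types (right); lines join the points of a miRNA and the arrays have no order. The miRNAs on the left are all above their mean on control sclera array 1 and myopic sclera arrays 2 and 3, and below it on control sclera array 3 and myopic sclera array 1, whereas miR-199a-3p is nearly flat and miR-124-3p is lowest on control sclera array 3.

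In the retina the 3 miRNAs varied differently. The signal of miR-184-3p lay between 94.0 and 5342 on the control retina arrays, a 56.8-fold range, while miR-203-3p stayed between 11.8 and 13.8 on the same arrays, a 1.17-fold range. As scanned, the signal of miR-184-3p on control retina array 3 (5342) was near that on control sclera array 1 (5435). MiR-205-5p had 12.2 on this retina array against 971, and miR-203-3p had 13.8 against 118. The normalized levels were 11.80 and 12.78 for miR-184-3p, 3.89 and 10.08 for miR-205-5p, and 4.16 and 7.61 for miR-203-3p. On the myopic retina arrays, where miR-205-5p, miR-200a-3p, miR-200b-3p, miR-200c-3p and miR-141-3p were not detected, miR-184-3p still had a signal of 546 to 720. Of the 11 other epithelial miRNAs on the array, 5 were detected on all 3 myopic retina arrays (miR-429-3p, miR-200a-5p, miR-141-5p, miR-31-5p and miR-31-3p) and 6 on none of them. Detection on the myopic retina arrays thus differed among the epithelial miRNAs, and also between the arms of the miR-200a and the miR-141 hairpin. Whether these retinal signals came from epithelium was not tested.

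The spread of miR-184-3p in the control retina was present in both of its probes. The 22-base and the 21-base probe read 47.3 and 46.7 on control retina array 1, 736 and 743 on array 2, and 2629 and 2713 on array 3. The coefficient of variation over the spots of a probe, outlier spots left out, was 5.33 to 12.6% on these arrays, which covers the error within an array and not that between samples. All 10 spots of each probe were well above background on all 3 arrays.

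Other miRNAs moved with miR-184-3p on the control retina arrays. MiR-31-5p, a miRNA of several epithelia, had 39.7, 171 and 482 on control retina arrays 1, 2 and 3 and 80.9 to 120 on the myopic retina arrays. The mesenchymal miR-199a-3p had 36.8, 49.7 and 197 against 42.5 to 60.9, and the muscle miRNA miR-1a-3p had 42.9, 103 and 181 against 60.4 to 90.2. These 3 were highest on control retina array 3, as was the only detection of miR-205-5p and of miR-200b-3p in the retina. The order was the opposite for miR-206-3p, another muscle miRNA, with 102, 28.6 and 14.4 in the control retina and 94.5 to 254 in the myopic retina. Likewise, miR-200a-5p, on the other arm of the miR-200a hairpin, was detected on control retina array 1 (41.4) and on the myopic retina arrays (40.4 to 114) and not on control retina arrays 2 and 3. The summed signal of the neuronal markers had the same order but differed far less, with 208718, 221758 and 274511 in the control retina, and so did the total signal of these arrays, with 611279, 629362 and 715574.

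The whole mesenchymal list had a summed signal of 129, 166 and 542 on control retina arrays 1, 2 and 3 and 134 to 194 in the myopic retina, with miR-214-3p not detected on any retina array. The muscle list had 251, 315 and 498 against 287 to 534. As scanned, the mesenchymal signal of 542 on control retina array 3 was below the lowest scleral value of 7835, and miR-184-3p exceeded 5 of the 6 sclera arrays. The normalized level of miR-184-3p on control retina array 3 was 11.80, within the range of 9.76 to 12.78 on the sclera arrays. The part of tissue carried over in the dissection in the spread of miR-184-3p was not tested.

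**Figure D5:**
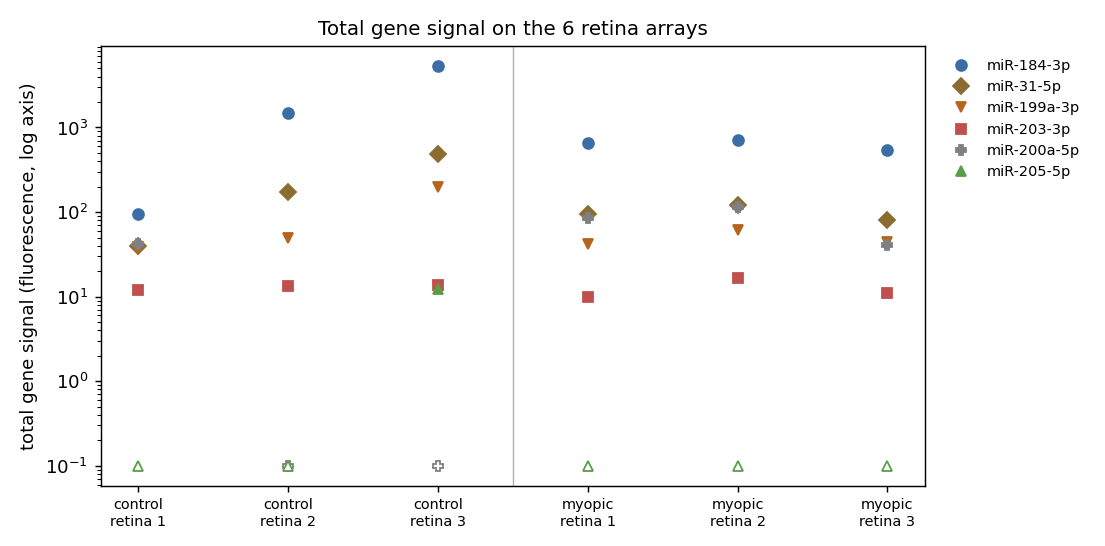
Total gene signal (fluorescence units, log axis) on the 6 retina arrays for miR-184-3p, miR-31-5p, miR-199a-3p, miR-203-3p, miR-200a-5p and miR-205-5p, with open symbols at 0.1 where a miRNA was not detected. MiR-184-3p and miR-31-5p are lowest on control retina array 1 and highest on control retina array 3, miR-203-3p stays between 10.0 and 16.7, and miR-205-5p is detected on control retina array 3 alone.

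Over the 6 retina arrays, a set chosen after seeing the data, the miRNA with the pattern most like miR-184-3p out of 324 was miR-31-5p (r = 0.97), followed by miR-34a-5p (r = 0.95), miR-362-3p (r = 0.94), miR-133a-3p (r = 0.94) and miR-20a-5p (r = 0.93). Its r with miR-203-3p was 0.66, and 0.37 with 75th percentile scaling, against 0.94 in the sclera. The control retina arrays set most of these values.

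Over all 12 arrays, among 353 miRNAs detected on at least 6 arrays, the patterns most like miR-184-3p were those of miR-20a-5p (r = 0.94), miR-31-5p (r = 0.91), miR-20b-5p (r = 0.88), miR-93-5p (r = 0.85) and miR-222-3p (r = 0.84). Those most like miR-203-3p were miR-200b-3p (r = 0.96), miR-205-5p (r = 0.95), miR-221-3p (r = 0.95), miR-142-3p (r = 0.95) and miR-322-5p (r = 0.95). Those most like miR-205-5p were miR-200b-3p (r = 0.9996), miR-455-5p (r = 0.99), miR-199b-5p (r = 0.98), miR-199a-5p (r = 0.98) and miR-199a-3p (r = 0.98). The 12-array values mix the difference between the tissues with the variation within them, and for miR-205-5p 5 of the 12 points stand at the floor. Over the 6 sclera arrays alone the r of miR-205-5p was -0.39 with the mesenchymal miR-199a-3p and 0.99 with miR-200b-3p. With 75th percentile scaling these values were -0.23 and 0.98. After quantile normalization miR-199a-3p stayed between 13.59 and 13.69 on these arrays, so that a likeness could hardly show.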

How the data were processed

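The authors deposited the scanner output of 12 Agilent mouse miRNA arrays (release 15.0), made with Feature Extraction (version 11.0.1.1 in the file headers), in which each value is a background-subtracted fluorescence intensity. MiRNAs with no detected probe are listed at 0.1. A table of log2 values was also deposited by the authors, processed in Partek 6.6 per the labels and the methods (minimum of 0.5, quantile normalization, log2). The values computed here correlated with them at 0.999 over 437 mouse miRNAs, with a median absolute difference of 0.12 and a median of 5.74 on every deposited array. This sets the scale and direction of the deposited values, which were used as an alternative.

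Total gene signals were floored at 0.5, quantile normalized over 696 names and transformed to log2. Of these, 253 names detected on no array were left out and 443 were tested by limma (version 3.58.1, R 4.3.3; moderated linear model, 1 fit of the 4 groups, 8 residual degrees of freedom, two-sided, Benjamini-Hochberg). The code was tested on simulated data. Figures were drawn with Python 3.11.15 and matplotlib 3.10.9. The number of arrays limits the precision, and p-values measure the spread between the samples of a group.

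The miRNAs and marker lists were chosen with earlier results of these data known. All 4 names of the 3 miRNAs are given, the 3p arms of the miR-200 family are named with values, and of the other lists those named first stand beside a result, with the rest as counts. MiR-31-5p, miR-31-3p, miR-200a-5p, miR-141-5p, miR-1a-3p and miR-206-3p were named after their values were seen. Likeness is Pearson's r of normalized values, and the 5 highest are named. Each tissue comparison shares 3 arrays with each deprivation comparison.

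Arrays of a number come from the same animals per the labels, and lay on the same slide. The deviations from the group means correlated at 0.38, -0.46 and 0.59 in the retina pairs 1, 2 and 3 and at -0.14, -0.16 and -0.00 in the sclera pairs (246 miRNAs).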

Additional observations from a re-analysis of the deposited data

How the results depend on the processing

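Each result was recomputed under other normalizations, floors, filters, signals, fits and with each array left out, plus the brighter probe alone, which was chosen after seeing the data. Between control sclera and control retina, 2 of the miRNAs were called, and 1 with no normalization between arrays, with quantile normalization within each tissue, with normexp background correction and with only miRNAs detected on all 12 arrays, where miR-205-5p is not tested. Between myopic sclera and myopic retina 2 were called, and 1 with no normalization, with normexp and with only miRNAs detected on all 12 arrays. In 3 settings, named below, miR-184-3p was called there as well. MiR-205-5p was called in both under every alternative that tested it, and miR-203-3p was the one lost: 1.68 and 1.45 with no normalization, 1.03 within each tissue (control), 0.42 and 0.42 with normexp. Between myopic and control retina 0 were called, and 1 with array weights (miR-203-3p), where 146 of all 443 miRNAs were called. Leaving out single arrays gave 2 to 3 calls in both tissue comparisons and 0 to 0 in the others. The replicate block changed no call of the 3 miRNAs, whether fixed (miR-203-3p 3.10 between control tissues, adjusted p = 0.0066) or random (adjusted p = 0.0030).

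Signs turned only in differences that were not called. The difference of miR-184-3p between myopic and control sclera was 0.064 with normexp, 0.013 with array weights and 0.026 with the brighter probe. The change in retina minus that in sclera was 0.075 (75th percentile) and 0.23 (no normalization) for miR-203-3p, and 0.060 (normexp) and 0.11 (array weights) for miR-205-5p. With single arrays left out, the myopic minus control sclera difference ranged from -0.49 to 0.80 for miR-184-3p, -0.71 to 0.44 for miR-203-3p and -0.58 to 0.50 for miR-205-5p. In the retina it ranged from -2.33 to 0.64 for miR-184-3p, and the change in retina minus that in sclera from -2.27 to 0.69 for miR-184-3p and -2.23 to 0.21 for miR-205-5p. MiR-184-3p was called between myopic tissues with the 75th percentile over all names (3.45, adjusted p = 0.044) and with array weights (3.08, adjusted p = 0.0024). It was also called there when only the groups compared were fitted. The causes were not tested. The median difference of control sclera and control retina over 246 miRNAs moved from 0.24 to -0.13 (75th percentile), 0.41 (75th percentile over all names), -1.17 (no normalization) and -1.43 (within each tissue).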
